A study of Homo sapiens with 52 samples.

Results

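Chromosome 19 was examined for contact with the nuclear lamina in 51 single KBM7 cells, together with the clusters of zinc finger genes that it carries. The chromosome was covered by 592 bins of 100 kb on hg19, of which 560 had a value in every cell, out of 26584 such bins in the whole data set. The 7 zinc finger clusters were defined by position and held 135 of the 560 bins (24.1%). They are numbered 1 to 7 from the end of the short arm to the end of the long arm. The cells were of clone 14, labelled 2N, of the human leukaemia line KBM7, long established in culture. The cells formed 1 group and all expressed a fusion of the Dam methyltransferase to Lamin B1, stabilised with 0.5 nM Shield1 for 15 h. All thus came from 1 clone, sorted for signal of both Fucci cell cycle reporters and, among such cells, for the smallest 2% by size. The labels name no separate cultures, and the 51 cells were treated as a single sample. No p-value is given, SDs describe the spread between these cells, and the copies of the chromosome in a 2N cell were not told apart.

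In DamID, Dam fused to a lamina protein methylates the adenine of GATC in DNA that comes close to the lamina, and methylated sites are cut and amplified. Regions in contact with the lamina are mostly gene-poor and silent, while chromosome 19 is known for its high gene density. It also carries large families of zinc finger genes that arose by tandem duplication. Many of these genes encode KRAB zinc finger proteins, which bind DNA and repress transposable elements, and the gene clusters themselves are often packaged in heterochromatin.

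Each value is observed signal over expected signal (OE). Contact of a bin means an OE of 1 or more in that cell. The ratios hold whole numbers of reads, and 50978 to 316462 reads per cell were recovered from them (median 142539). Each bin also has a whole number by which the ratio divides, called its expected number here, with a median of 316 over all bins. A low expected number means that few reads make a contact. The widest gap in the values of chromosome 19, called the inner stretch here, ran from 24700001 to 27700000 and contains the centromere in hg19. Cluster 3 adjoins it on the short arm, and the other 6 clusters lie in the arms.

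Promoters from either side of the stretch are shown to give the kind of sequence found there. They come from RefSeq's table for GRCh38.p14, whose coordinates differ from the hg19 bins and were used for nothing else. In gene order, ATP13A1 is followed by 39 protein-coding genes up to the widest gap between protein-coding genes of the chromosome, and 37 of them have zinc finger symbols, from ZNF101 to ZNF254. The next 9 genes, up to ZNF507, run from UQCRFS1, a subunit of the mitochondrial respiratory chain, to TSHZ3, a developmental transcription factor. They include CCNE1, which encodes a cyclin that drives entry into S phase, and only ZNF536 has a zinc finger symbol. No gene was placed in a bin, since hg19 gene positions were not used here. Each promoter gives the 250 bases before the start site, and capitals mark GATC, the site that Dam methylates, and the letters CCAATCAG. ZNF91, a repressor of SVA elements, stands for the inner genes of the cluster.
ZNF101 (chr19:19668589-19668838, + strand): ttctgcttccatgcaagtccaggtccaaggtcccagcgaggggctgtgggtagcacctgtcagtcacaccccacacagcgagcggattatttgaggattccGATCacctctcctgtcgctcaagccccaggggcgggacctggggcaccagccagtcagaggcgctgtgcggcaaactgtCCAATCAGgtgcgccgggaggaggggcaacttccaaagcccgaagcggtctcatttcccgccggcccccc
ZNF91 (chr19:23395472-23395721, - strand): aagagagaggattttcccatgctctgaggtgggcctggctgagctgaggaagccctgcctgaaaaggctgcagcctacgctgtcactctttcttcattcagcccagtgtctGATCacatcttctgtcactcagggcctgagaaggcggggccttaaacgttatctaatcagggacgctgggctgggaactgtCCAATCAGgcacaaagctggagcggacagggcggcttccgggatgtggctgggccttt
ZNF254 (chr19:24086937-24087186, + strand): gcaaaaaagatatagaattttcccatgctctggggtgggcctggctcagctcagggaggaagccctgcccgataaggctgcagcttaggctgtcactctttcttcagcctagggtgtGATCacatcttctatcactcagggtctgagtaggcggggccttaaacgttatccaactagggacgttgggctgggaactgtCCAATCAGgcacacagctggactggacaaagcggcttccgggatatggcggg
UQCRFS1 (chr19:29213152-29213401, - strand): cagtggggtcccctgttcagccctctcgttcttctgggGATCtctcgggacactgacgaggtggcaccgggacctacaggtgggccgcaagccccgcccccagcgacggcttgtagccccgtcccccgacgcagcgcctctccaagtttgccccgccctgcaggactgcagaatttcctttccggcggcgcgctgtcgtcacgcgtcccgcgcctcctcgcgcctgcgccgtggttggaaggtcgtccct
TSHZ3 (chr19:31349437-31349686, - strand): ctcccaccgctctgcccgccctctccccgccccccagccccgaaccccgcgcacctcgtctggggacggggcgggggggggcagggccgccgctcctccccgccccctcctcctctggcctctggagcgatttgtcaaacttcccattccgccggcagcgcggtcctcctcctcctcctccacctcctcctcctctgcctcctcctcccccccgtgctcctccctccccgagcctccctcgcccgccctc

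The zinc finger promoters beside the stretch resembled each other. CCAATCAG, on either strand, was found in 29 of the 29 promoters that the table holds for the 37 genes. It was found in 28 of 199 (14.1%) promoters of other zinc finger genes of chromosome 19, in 0 of 9 on the long arm side and in 3.98% of all 27305 promoters. These letters contain the CCAAT box, a common promoter element. GATCAC, on either strand, was found in 21 of the 29 (72.4%), against 3 of 199 (1.51%) and 5.18% of all promoters. In all 21 it preceded CCAATCAG on the printed strand, by 49 to 81 bases (median 52). GATC itself, which reads the same on both strands and is contained in GATCAC, was found in 79.3% of the 29 promoters, in 36.7% of those of the other zinc finger genes, in 4 of 9 on the long arm side and in 35.8% of all. The median number of CpG pairs was 8 in the 29 promoters, 17 in those of the other zinc finger genes, 25 on the long arm side and 11 over all promoters. CCAATCAG and GATCAC were chosen after the promoters had been read, and genes copied from each other are not independent.

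Chromosome 19 had few contacts and they were not spread evenly. The share of its bins in contact was 2.20% ± 2.1 (SD, n = 51 cells), with a lowest value of 0%, a median of 1.61% and a highest of 7.68% in cell 26. Of the 560 bins, 74 (13.2%) were contacted in at least 1 cell, against 61.3% of all measured bins, and 486 (86.8%) in no cell, against 38.7%. A contact in 0 of 51 cells allows a share of up to 5.88% of cells, if cells are taken as independent draws. No bin was contacted in at least 80% of cells, a frequency that 20.9% of all measured bins reached. Bins without a read in any cell numbered 119 (21.3%), against 7.47% overall. The share was 22.0% on chromosome 17, 10.2% on chromosome 20 and 37.2% on the joined chromosome 22:9. Those bins have no known expected number, so the limit does not hold for them.

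Contacts lay almost entirely in the 100 bins within 5 Mb of the inner stretch. Cluster 3 held 66.5% of the 629 contacts of the chromosome (counted over bins and cells) and the long arm side 32.1%. The contacted share was 12.2% ± 11.7 in these 100 bins and 0.0384% ± 0.0943 in the 460 arm bins. It was higher beside the stretch in 43 of 51 cells and equal in the other 8, which had no contact on the chromosome.

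**Figure D1:**
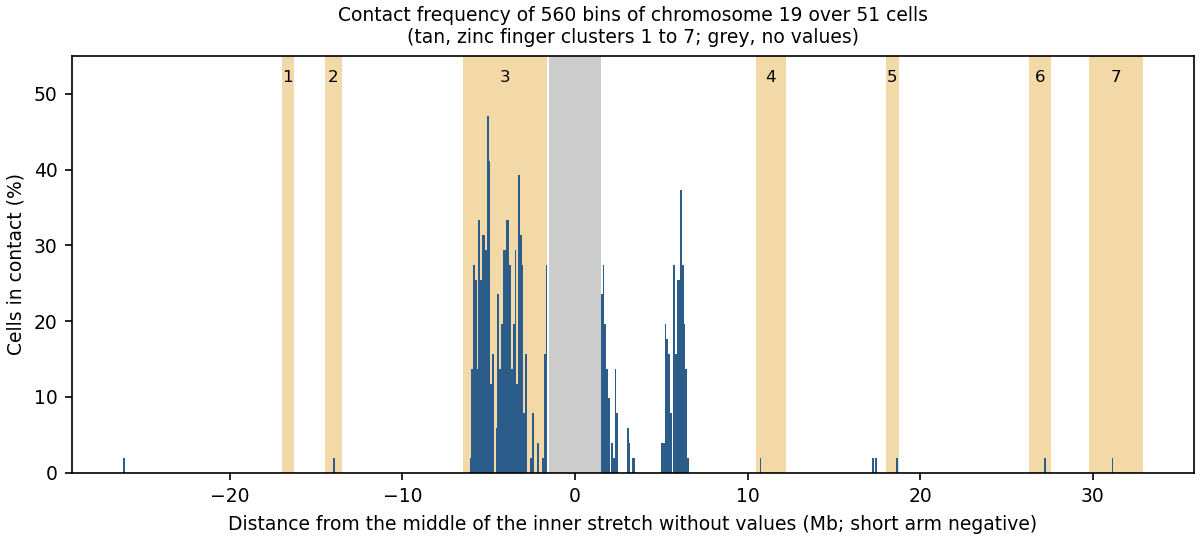
Share of the 51 cells in contact (%) for each of the 560 bins against distance from the middle of the inner stretch (Mb). Tan bands are the zinc finger clusters and the grey band has no values. Contacts stand in cluster 3 and on the long arm side, while each of the 9 contacted arm bins was contacted in 1 cell.

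Taken as 1 class, the zinc finger clusters were contacted more than the other bins of the chromosome. Their contact share was 6.14% ± 6.74 (lowest 0%, median 2.96%, highest 21.5%), against 0.950% ± 1.09 for the other 425 bins (lowest 0%, median 0.471%, highest 3.76%). The difference of 5.19 points ± 6.38 was smaller than its spread between cells. It was positive in 37 cells, negative in 6 and 0 in 8. The direction depended on cluster 3. When its 49 bins were left out, the other 6 clusters lay below the other bins by -0.836 points ± 1.17, since the other bins include the contacted long arm side.

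Cluster 3, from 19700001 to 24600000, was the contacted one. Its contact share was 16.7% ± 18.4 (lowest 0%, median 8.16%, highest 59.2% in cell 19), and 39 of 51 cells had at least 1 contact in it. Of its 49 bins, 38 (77.6%) were contacted in at least 1 cell, against 61.3% of all measured bins. Its share lay above that of the arm clusters in all 39 of these cells, by 16.6 points ± 18.3 over the 51. It lay below the share of the cell's whole genome in 38 cells and above it in 13. Its contacted bins had a median OE of 1.81, against 1.42 on the long arm side and 2.40 over all bins. These medians cover only values that passed the threshold. The median expected number was 135 in cluster 3, 336 on the long arm side and 316 over all bins. Fewer reads thus make a contact in cluster 3, and 1 read moves the OE further. The part of this in its shares and medians was not tested. At an OE of at least 2 its contact share was 7.16%.

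The 6 arm clusters were almost without contact. Cluster 1 (9200001 to 9900000, 7 bins) was contacted in 0 of 51 cells, and 4 of its bins had no read in any cell. Each of the others had 1 contacted bin in 1 cell. In cluster 2 (11700001 to 12700000, 10 bins) this was the bin from 12200001 in cell 21, with an OE of 1.08 from 3 reads. Cell 21 also had the contact of cluster 4 (36700001 to 38400000, 17 bins), in the bin from 36900001, with an OE of 1.30 from 4 reads. With 1 read fewer, neither bin would have reached an OE of 1.

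The contacts of clusters 5 and 6 also rested on few reads, that of cluster 7 on more. Cluster 5 (44200001 to 45000000, 8 bins) had its contact in the bin from 44800001 in cell 10, with an OE of 1.26 from 3 reads. Cluster 6 (52500001 to 53800000, 13 bins) had it in the bin from 53400001 in cell 32, with an OE of 1.35 from 4 reads. Cluster 7 (56000001 to 59100000, 31 bins), the outermost of the long arm, had it in the bin from 57300001 in cell 38. There the OE was 1.48 and rested on 18 reads of an expected number of 329.

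Against the rest of the arms the 6 clusters differed by less than the spread between cells. Their contact share was 0.114% ± 0.420 over 86 bins, against 0.0210% ± 0.0726 over the other 374 arm bins. The difference of 0.0930 points ± 0.431 was positive in 4 cells, negative in 4 and 0 in 43. Without cell 21 it was 0.0484 points. At an OE of at least 2 it was -0.00524, which came from 1 contact alone. This was the bin from 1 to 100000 in cell 9, with an OE of 149 from 1 read. With at least 3 reads required for a contact the difference was 0.109 points, positive in 4 cells and negative in 1. In bins with an expected number of at least 100 it was 0.141 points, again positive in 4 cells and negative in 1. Counted by bin, 5 of 86 cluster bins (5.81%) and 4 of 374 other arm bins (1.07%) were contacted in at least 1 cell. Of the 4 other bins, 1 adjoins the long arm side. The other 3 have recovered expected numbers of 1, 32 and 49, at which 1 read made each contact. With reads in few cells the recovery gives the smallest whole numbers, so both reads and expected numbers can be too low.

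Signal below the threshold was compared through the pooled OE, the reads of a set of bins divided by their summed expected number on the OE scale of the cell. It was 0.0170 ± 0.0380 in the arm clusters and 0.00940 ± 0.0162 in the other arm bins, a difference of 0.00759 ± 0.0315 that was positive in 31 cells and negative in 19. Bins without a read in any cell have no known expected number and add nothing to that sum, which raises both values. They were 22.1% of the arm cluster bins and 25.9% of the other arm bins. A read was present in 4.35% ± 8.32 of the cluster bins and 3.02% ± 4.93 of the other arm bins. Over all measured bins the share was 49.9% ± 6.97.

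Cell 38 stood apart in the arm clusters. It held 154 of the 366 reads found there in all cells (42.1%), while the median cell held 2. It also had 94 reads in the other arm bins, where the median cell had 4 and cell 32 the most, 134. Cell 38 is among the deeper cells, with 287562 reads. A total of 79 of its reads lay in 8 neighbouring bins of cluster 7, from 56800001 to 57600000, each with at least 5 reads and an OE of 0.423 to 1.48. The other 50 cells together held 56 reads in these bins. Without cell 38 the pooled OE of the arm clusters was 0.0124 ± 0.0188, and their difference from the other arm bins was 0.00343 ± 0.0107. These 8 bins and this cell were singled out after their values were seen.

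**Figure D2:**
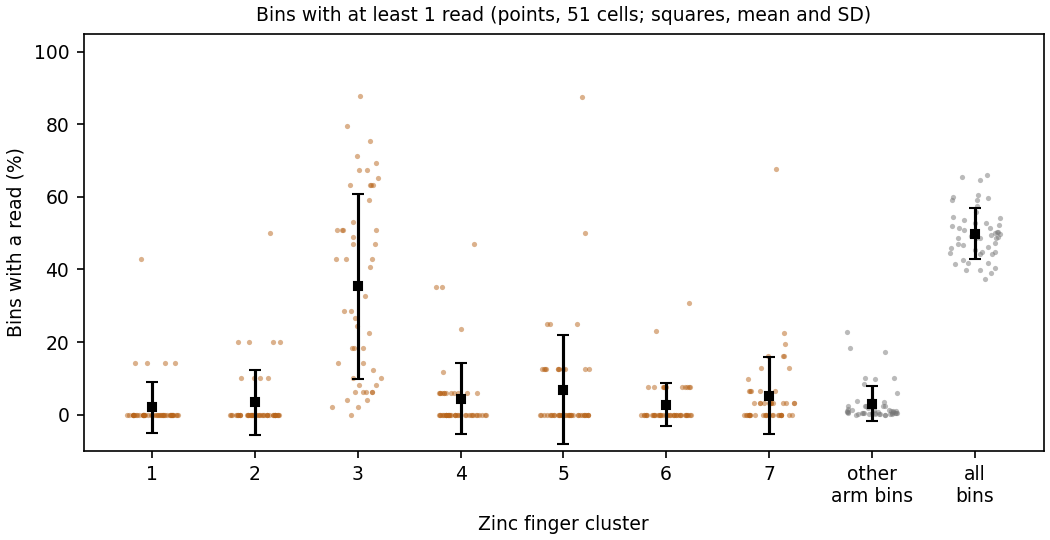
Share of bins with at least 1 read (%) in each zinc finger cluster, in the other arm bins and in all measured bins. Points are the 51 cells, and squares with bars are the mean and SD. Cluster 3 had reads in 35.4% ± 25.5 of its bins, and the arm clusters in 1.96% to 6.86%.

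The sides of the inner stretch were then compared over equal widths, because one side is zinc finger cluster and the other is not. On the short arm, from 19700001 to 24700000, the contact share was 16.4% ± 18.0 (lowest 0%, median 8%, highest 58% in cell 19). On the long arm, from 27700001 to 32700000, it was 7.92% ± 9.23 (lowest 0%, median 4%, highest 32% in cell 26). The values of the sides overlapped widely. The difference of 8.47 points ± 16.5 was positive in 30 cells, negative in 12 and 0 in 9, and so was smaller than the spread between cells. With sides of 2 Mb it was 4.31 points, with 3 Mb 11.0, with 10 Mb 4.20, and at an OE of at least 2 it was 5.57. The share of bins with any read was 34.7% ± 25.0 and 31.7% ± 22.0.

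The sides differed in their expected numbers, which had a median of 135 on the short arm and 336 on the long arm. In a cell of median depth an OE of 1 in a bin of these sizes took 2.50 and 6.23 reads. A short arm call therefore rested on fewer reads, and the part of this in the difference was not tested. With at least 3 reads required for a contact, the shares were 14.0% and 6.59%. In bins with an expected number of at least 100 they were 16.3% and 7.09%. After all cells were thinned to 50978 reads they were 18.6% and 7.48%. Thinning does not address the unequal expected numbers. In the shallowest cell, which has that depth, an OE of 1 took 0.906 and 2.26 reads at the median expected numbers.

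Contact formed separate blocks within each side. Counted away from the stretch in segments of 1 Mb, the short arm had contact shares of 5.69% ± 8.55, 16.5% ± 21.1, 24.3% ± 30.9, 23.9% ± 27.9 and 11.6% ± 14.9. The long arm had 12.2% ± 15.4, 1.37% ± 4.48, 0%, 6.08% ± 11.8 and 20.0% ± 26.8. The short arm values were thus highest 2 to 4 Mb from the stretch, and the long arm values at both ends of the side. In each segment the lowest cell stood at 0%, and the highest reached 100% in the short arm segment 2 to 3 Mb out. Expected numbers of the segments had medians of 122 to 137 on the short arm and 165.5 to 389.5 on the long arm.

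**Figure D3:**
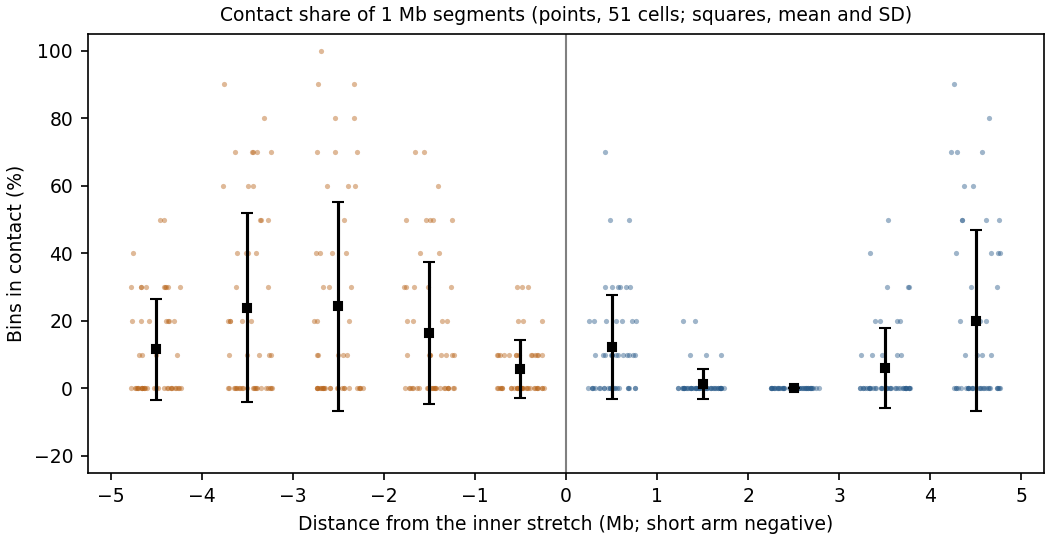
Share of bins in contact (%) in 1 Mb segments at increasing distance from the inner stretch (Mb, short arm negative). Points are the 51 cells, and squares with bars are the mean and SD. The segment 2 to 3 Mb out is at 24.3% on the short arm and at 0% on the long arm.

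Bins contacted in at least 20% of cells numbered 27 (4.82% of the chromosome), against 42.9% of all measured bins. They formed 7 runs on the short arm, with 20 bins, and 3 on the long arm, with 7 bins. The longest run, from 20600001 to 21300000, had a contact share of 34.2% ± 37.2, and 31 cells touched it, 4 of them over its whole length. A second, from 22000001 to 22500000, stood at 30.6% ± 37.2 and was touched in 26 cells. The longest on the long arm, from 32100001 to 32500000, stood at 28.9% ± 37.5 and was touched in 24 cells. In each of these 3 runs the SD between cells was larger than the mean.

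The bin of highest frequency lay in cluster 3. The bin from 21100001 was contacted in 24 of 51 cells (47.1%, exact interval at the 95% level 32.9% to 61.5%), with an OE from 0 to 4.61 and a median of 0.756. Its neighbour from 21200001 followed with 21 cells, and the bin from 22900001 with 20. Of the 10 bins of highest frequency 9 lay in cluster 3. The exception was the bin from 32300001 on the long arm, in contact in 19 cells (37.3%, interval 24.1% to 51.9%), with an OE from 0 to 3.91 and a median of 0.623. These intervals take cells as independent draws, and the bins were picked by these same values in the same cells. The intervals overlap, and they do not settle the order of these bins.

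Parts of cluster 3 had no contact. Its outermost 4 bins, from 19700001 to 20100000, were contacted in no cell and held 12 reads in all. The next bins inward, from 20100001, 20200001 and 20300001, were contacted in 1, 7 and 14 cells. The bin from 21500001 lies between contacted blocks and held 2 reads in 51 cells. In total 11 of the 49 bins (22.4%) were contacted in no cell, against 38.7% of all measured bins, so such bins were not particular to the cluster. Beside the stretch itself, the bin from 24500001 was contacted in 14 cells, but its expected number was 44, so that 1 read made a contact in a cell of median depth.

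The long arm side had a wide inner part without contact. The 15 bins from 29700001 to 31200000 were contacted in no cell. Of these, 2 had no read in any cell, and the other 13 held 290 reads in 35 cells, with a highest OE of 0.997. At the outer border 10, 7, 1 and 0 cells were in contact in the bins from 32500001, 32600001, 32700001 and 32800001.

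**Figure D4:**
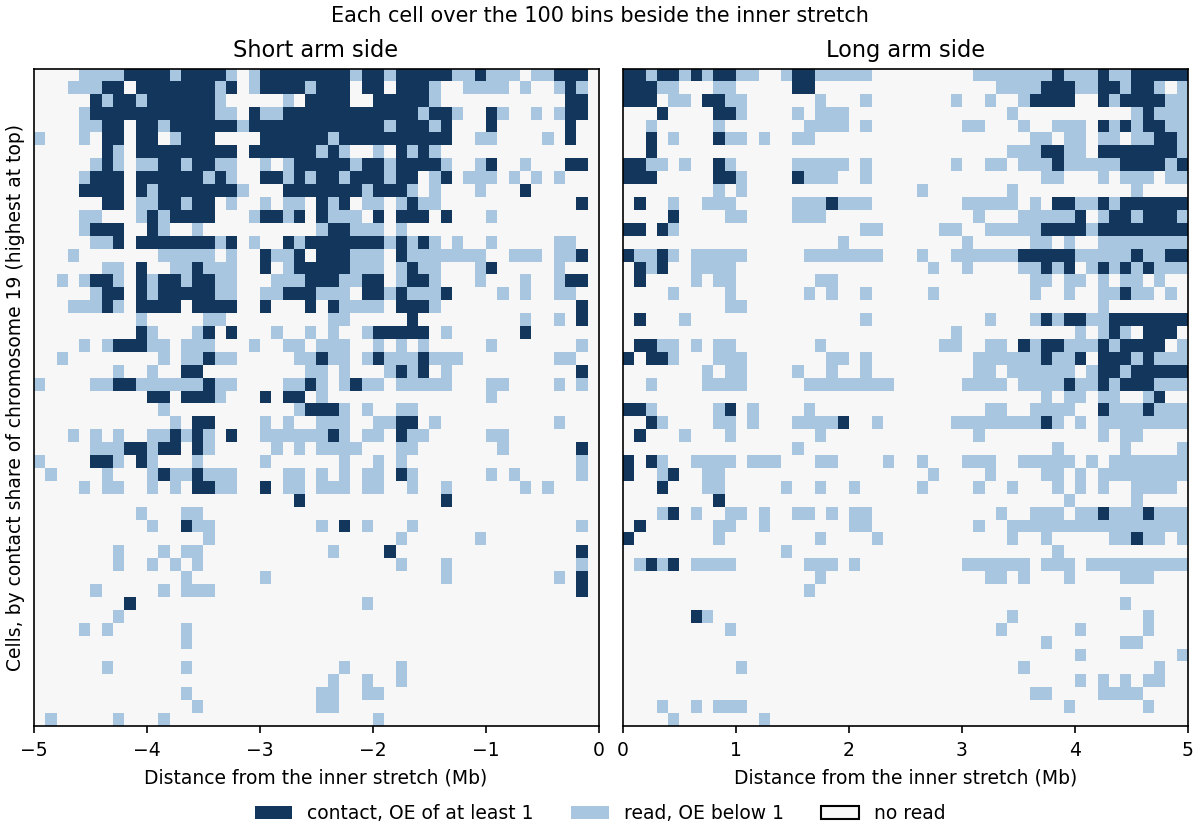
The 100 bins beside the inner stretch in each of the 51 cells, ordered by contact share of chromosome 19, against distance from the stretch (Mb). Dark squares are contacts and light squares are reads below an OE of 1. Contact in the upper rows fills blocks on the short arm, and the middle of the long arm side has none.

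The cells covered a wide range. Cell 26 had the highest share of the chromosome in contact, 7.68% (95% Wilson interval 5.75% to 10.2%), followed by cell 33 with 6.25% (4.53% to 8.57%) and cell 2 with 6.07% (4.38% to 8.36%). These intervals and the limits below take the bins of the chromosome, neighbours included, as independent draws. They do not cover error in the reads behind each call, and PCR reads carry no molecular identifiers. At the other end, 8 cells had no contact, for which the upper Wilson limit is 0.681% of bins, and a limit of 3 bins is 0.536%. These 8 held 2 to 17 reads in the 100 bins beside the stretch, from totals of 77387 to 244070 reads (median 101828), against a median of 145928 in the other 43. Their share of the whole genome in contact was 25.9% to 34.7% (median 28.1%), against a median of 31.7% in the others. Cell 50, with 244070 reads and 30.8% of its genome in contact, had 26 reads on chromosome 19.

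The chromosome's contact had a weak relation to depth. Over the 51 cells, all of 1 clone, Pearson's r between the contact share of the short arm side and the reads of the cell was 0.0676 (Spearman's rho 0.108). For the long arm side r was 0.320 (rho 0.314). With the share of the whole genome in contact, r was 0.178 for the short arm side and 0.351 for the long arm side. These are descriptions of these cells.

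Both sides were often contacted in the same cell. A total of 31 cells had contact on both, 8 on the short arm side alone, 4 on the long arm side alone and 8 on neither. The contact shares of the sides had an r of 0.412 (rho 0.522, and r of 0.463 without the 2 cells farthest out on the short arm side). At an OE of at least 2 the r was 0.138 and 19.6% of cells had contact on both, against 60.8%. Cells with much contact on one side could have little on the other. Cell 19 had 58% of short arm bins and 8% of long arm bins in contact, and cell 10 had 46% and 0%. Cell 41 had 12% and 30%, and cell 3 had 4% and 22%.

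**Figure D5:**
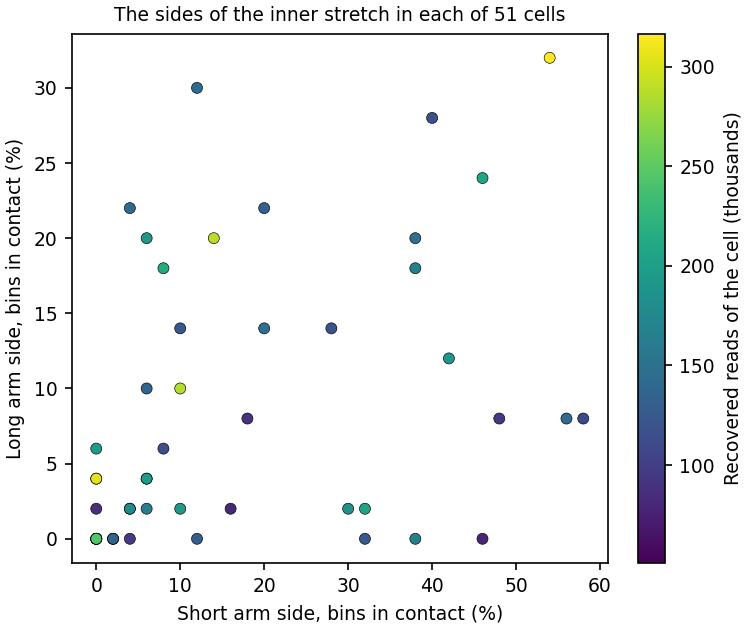
Share of bins in contact (%) on the long arm side against the short arm side, 1 point per cell, coloured by the recovered reads of the cell. Short arm values reach 58% and long arm values 32%. Some cells high on one side were low on the other, while r between the sides was 0.412.

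Neighbouring segments of the short arm side varied together. The adjoining short arm segments 2 to 3 Mb and 3 to 4 Mb out had an r of 0.801 over cells, and the innermost and outermost short arm segments 0.432. The outer long arm segments, 3 to 4 Mb and 4 to 5 Mb out, had an r of 0.612, and the innermost and outermost, which enclose the part without contact, 0.378. The innermost segments on the opposite sides of the stretch had an r of 0.406 (rho 0.153), and the outermost 0.186 (rho 0.282). Across the stretch r ran from 0.0958 to 0.486, and within the long arm side from 0.217 to 0.612, so these ranges overlap. Segments share the depth of their cell, and no test was made of these differences.

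Uninterrupted contact was short. The short arm side had 181 runs with a mean length of 0.231 Mb, of which 50.8% were 1 bin long. The 22 runs of at least 0.5 Mb came from 14 cells, and the longest, 1.2 Mb from 21900001 to 23100000, was in cell 19. The long arm side had 111 runs with a mean of 0.182 Mb, and 60.4% were 1 bin long. Its 7 runs of at least 0.5 Mb came from 7 cells, and the longest, 0.8 Mb from 31900001 to 32700000, was in cell 41. Averaged per cell, the lengths were 0.205 Mb and 0.165 Mb. With at least 3 reads required for a contact they were 0.184 Mb and 0.187 Mb, so the order of the sides turned.

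Chromosome 19 was set against chromosomes 17 and 20 and the joined chromosome 22:9. Chromosomes 17 and 22:9 were picked as most like it in contact share, the quantity then compared, and chromosome 20 as most like it in length. Its contact share lay below that of chromosome 17 (9.54% ± 3.56) in 49 cells, by -7.34 points ± 3.71, and below that of chromosome 20 (22.5% ± 6.37) in all 51, by -20.3 ± 6.27. Against chromosome 22:9 (0.662% ± 0.870) the difference was 1.54 points ± 2.06, with chromosome 19 higher in 37 cells and lower in 10. Among bins with an expected number of at least 100 it was higher in 39 and lower in 0. The place of the contacts differed too. On chromosome 17 the bins more than 5 Mb from the inner stretch had a contact share of 10.3% ± 3.80, against 7.64% ± 5.44 on the short arm side and 1.69% ± 1.81 on the long arm side. On chromosome 20 they had 24.7% ± 6.77, against 16.8% ± 12.8 (36 bins) and 3.32% ± 1.96. The inner stretch found there ran only from 27900001 to 29400000, and its short arm side had 36 bins with values against 50 on chromosome 19. The sides of these chromosomes are thus not alike in extent. The arm bins of chromosome 17 and of chromosome 20 thus had the highest mean share of the 3 parts, and those of chromosome 19, at 0.0384% ± 0.0943, the lowest. On chromosomes 17 and 20 the values of the arms and the short arm side overlapped between cells. Chromosome 22:9 was not divided in this way.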

How the data were processed

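Single-cell DamID of Lamin B1 was measured in 52 labelled cells, of which 51 have a column here, and cell 47 was not analysed here. The authors deposited, as OE, the ratio of observed over expected signal for 30376 windows of 100 kb, made with cutadapt and Bowtie2 2.1.0 on hg19, per the submitters' processing notes. What the expected signal was made from is not given in the sources used here. Bins with a value in every cell were used. Whole reads were recovered from the nonzero values (100% whole within 0.02 reads). Each value equals reads over an expected number particular to the bin, scaled per cell. The expected number was chosen to make a bin's values whole, so wholeness is partly built in, and wholly where a single cell has a read. In simulated data 99.9% of values over 24402 bins were recovered, but bins with the lowest expected numbers were left out. These reads may be distinct sites, and depth means their total.

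The members, clusters and alternatives were chosen with earlier results of these data known. Bins were named as the 7 clusters, the sides of the inner stretch, the 10 bins of highest frequency, runs with contact in 20% of cells or more, and the best bin of each cluster, and cells as those with the highest and lowest share. Other bins, cells and promoter letters were chosen after values were seen. Values are means over cells with SDs, with no test. Alternatives covered the OE threshold, bins, depth, cluster edges, side widths and cells. Python 3.11.15, numpy 2.4.6 and pandas 2.3.3 were used.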

Additional observations from a re-analysis of the deposited data

How the results depend on the processing

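Of 173 values under alternatives, 159 kept their sign and stayed within 1 SD over cells or the 95% interval, 12 moved further and 2 turned sign. Alternatives added after the data were seen were a minimum of 3 reads, the omission of cell 38, cells of at least median depth, and those for runs and for contact on both sides. Leaving out any 1 of the 51 cells turned no sign. Without cluster 3 the zinc finger clusters lay below the other bins by -0.836 points, since that setting removes most of their contacts. At an OE of at least 2 the arm clusters differed from other arm bins by -0.00524 points, which came from 1 contact of 1 read in cell 9. At that threshold chromosome 19 differed from chromosome 20 by -11.9. Contact on both sides was then found in 19.6% of cells, with an r of 0.138. At an OE of at least 0.5, 76.5% of cells had contact on both sides. With any read counted as contact, chromosome 19 stood at 8.61%, cluster 3 at 35.4%, the short arm side at 34.7% and the long arm side at 31.7%. The arm clusters then differed from other arm bins by 1.33 points, and chromosome 19 from chromosomes 17, 20 and 22:9 by -11.3, -31.5 and 5.39. The rule of 1 SD is a loose one. For the long arm side (7.92% ± 9.23) and the differences between clusters and other bins and between the sides, the SD over cells exceeded the mean. Large falls there still counted as kept, as that of the long arm side to 1.45%. From an OE of at least 2 to one of at least 0.5, chromosome 19 ran from 0.760% to 3.86% (2.20% at 1), the short arm side from 7.02% to 25.5%, the long arm side from 1.45% to 15.3%, zinc finger clusters minus other bins from 2.42 to 7.80 points, and chromosome 19 minus 22:9 from 0.402 to 2.72. Why the other values moved was not tested. No paired analysis was possible because there is no other group of cells to pair with, while parts of the genome were compared within each cell. Depth limits single-bin calls most in cluster 3, where an OE of 1 took 0.906 reads in the shallowest cell.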
